A study of Homo sapiens with 12 samples.

Results

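The 8 genes described here, PHOX2A, HAND2, GATA2, GATA3, ISL1, TBX2, SIX3 and EYA1, encode transcription factors and a transcriptional coactivator of the adrenergic state of neuroblastoma. They were taken by name from the 60664 genes of the count table, with earlier results of these data known. All 8 were among the 17960 genes with enough counts to be tested. The cells were SK-N-SH, a human neuroblastoma line known to hold neuron-like cells beside flat cells that stick to the substrate. They were grown at a stiffness of 1, 8 or 30 kPa (kilopascals, the unit of elastic modulus), with 4 RNA-seq libraries each. All 12 libraries share the line, and the labels give no genotype change or other agent. What the substrate was made of, the culture time, and whether the replicates were separate cultures are not given in the sources used here. The p-values therefore set group differences against the spread between these libraries, which may not be the spread between cultures.

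Neuroblastoma arises from the sympathetic branch of the neural crest. In the adrenergic state a small circle of transcription factors bind their own and each other's enhancers and switch on genes of the sympathetic neuron. In the mesenchymal state, which resembles migratory neural crest and fibroblasts, other factors such as PRRX1 take that place. PHOX2A is a paired-type homeodomain protein that directs noradrenergic neuron identity. HAND2 is a basic helix-loop-helix factor that pairs with E proteins on E-box sequences. GATA2 and GATA3 are zinc finger proteins that bind GATA sequences. ISL1 is a LIM homeodomain factor of sensory and sympathetic neurons. TBX2 is a T-box repressor, SIX3 a homeodomain factor known from forebrain and eye development, and EYA1 a phosphatase and coactivator that partners homeodomain proteins of the SIX3 family.

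PHOX2A, HAND2, GATA2, ISL1 and SIX3 moved together from library to library, and the stretches before the start sites of 4 of them are printed to show how unlike they are in sequence. The strands run 5′ to 3′ and cover the 250 bases before the RefSeq start on GRCh38.p14, at chr11:72244177-72244426 (minus strand) for PHOX2A, chr4:173530230-173530479 (minus strand) for HAND2, chr3:128493202-128493451 (minus strand) for GATA2 and chr5:51383198-51383447 (plus strand) for ISL1. RefSeq starts can differ from the ends of the GENCODE gene spans given below. The PHOX2A stretch lies wholly inside the GENCODE span of that gene, 72239077 to 72245664, and not before its 5′ end. The last part of the ISL1 stretch runs past the GENCODE start of ISL1 at 51383391. Capitals mark the E-box letters CANNTG, the GATA letters GATAA and the homeodomain core TAAT, each searched on both strands.

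PHOX2A: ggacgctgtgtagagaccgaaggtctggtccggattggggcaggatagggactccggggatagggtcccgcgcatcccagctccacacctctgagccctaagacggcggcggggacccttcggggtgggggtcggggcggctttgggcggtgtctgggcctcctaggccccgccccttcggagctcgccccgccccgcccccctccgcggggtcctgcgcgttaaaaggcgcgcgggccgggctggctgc

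HAND2: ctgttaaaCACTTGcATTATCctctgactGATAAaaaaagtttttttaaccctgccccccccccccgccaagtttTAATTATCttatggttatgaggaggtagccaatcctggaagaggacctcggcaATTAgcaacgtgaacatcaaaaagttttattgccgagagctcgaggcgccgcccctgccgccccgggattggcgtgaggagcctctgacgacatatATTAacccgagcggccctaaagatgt

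GATA2: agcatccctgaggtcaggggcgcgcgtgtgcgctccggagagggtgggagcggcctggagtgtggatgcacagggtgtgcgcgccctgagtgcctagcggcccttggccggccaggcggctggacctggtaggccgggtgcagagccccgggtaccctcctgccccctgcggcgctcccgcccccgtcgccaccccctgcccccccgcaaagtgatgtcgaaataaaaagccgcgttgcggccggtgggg

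ISL1: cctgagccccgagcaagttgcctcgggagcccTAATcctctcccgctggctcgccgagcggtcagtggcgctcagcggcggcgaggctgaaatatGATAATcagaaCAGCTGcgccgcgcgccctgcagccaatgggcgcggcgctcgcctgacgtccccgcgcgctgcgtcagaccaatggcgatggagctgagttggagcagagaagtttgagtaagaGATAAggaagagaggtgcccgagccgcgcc

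The HAND2 stretch held 3 GATAA, 5 TAAT and 1 CANNTG match, some of them overlapping, as in the run TAATTATC. The ISL1 stretch held 2 GATAA, 2 TAAT and 1 CANNTG match, with a GATAA and a TAAT overlapping in GATAAT. The PHOX2A and GATA2 stretches held none of the 3 letter strings and were rich in G and C (73.2% and 72.8%, against 49.6% in HAND2 and 65.2% in ISL1). Of 34943 windows of this length in the RefSeq table, 20.5% held GATAA, 47.5% TAAT and 61.8% CANNTG. A match describes letters and not a bound site. GATA2 has 2 listed starts and the one nearer the annotated 5′ end was printed. RefSeq entries were matched for 5 of the 8 genes, these 4 and GATA3, which has 6 listed starts and is not printed. TBX2 and SIX3 had no entry, and EYA1 was not looked up.

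Depth, as total counts per library, was 14317437 to 15896607 at 1 kPa, 14951116 to 25349320 for the 8 kPa libraries and 23896536 to 27820973 for those at 30 kPa. The totals formed 2 depth classes, with the 4 libraries at 1 kPa and 8 kPa replicate 1 among the 5 shallow ones and the other 7 deep. Stiffness and depth class therefore cannot be told apart between 1 and 30 kPa. The sympathoadrenal label was checked against defining genes. DBH, the enzyme that makes noradrenaline, averaged 50.6 CPM (counts relative to the TMM-scaled library size) at 1 kPa, 60 at 8 kPa and 52.5 at 30 kPa, and CHGA, a granule protein, 54.1, 65 and 72.4 CPM. TH, the rate-limiting enzyme of catecholamine synthesis, had 1 count in all 12 libraries together, and INSM1, a neuroendocrine transcription factor, had 0. The 8 fibroblast markers summed to between 1380 and 1950 CPM per library, so some genes of the mesenchymal kind were abundant too. COL1A1 and LUM gave the largest parts, with 651 and 508 CPM on average at 1 kPa. COL1A2 and DCN gave the smallest, with 2.81 and 16.3 CPM there. Immune markers summed to at most 1.08 CPM, epithelial markers to between 46.5 and 72.6 CPM, with KRT5 and KRT14 at 0, and endothelial markers to between 2.7 and 10.3 CPM.

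Levels were compared between genes per kilobase of annotated exon. By the mean over the 12 libraries HAND2 was highest at 84.1 CPM per kb, higher than 98% of 13628 tested protein-coding genes. GATA3 followed at 30.4 CPM per kb, GATA2 at 26, PHOX2A at 22.6, ISL1 at 18.8, TBX2 at 13.7 and SIX3 at 8.03. EYA1 stood last at 0.698 CPM per kb, higher than only 14.1% of those genes, on an exon length of 9418 bases summed over all its transcripts. HAND2, from 54.7 to 109 CPM per kb in single libraries, did not overlap GATA3, from 25.3 to 33.8. EYA1, from 0.579 to 0.8, did not overlap SIX3, from 4.13 to 12.1. All other neighbours in this order overlapped in their ranges over libraries. Counts behind each value ran from 2746 to 9296 per library for HAND2 and from 76 to 209 for EYA1.

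**Figure D1:**
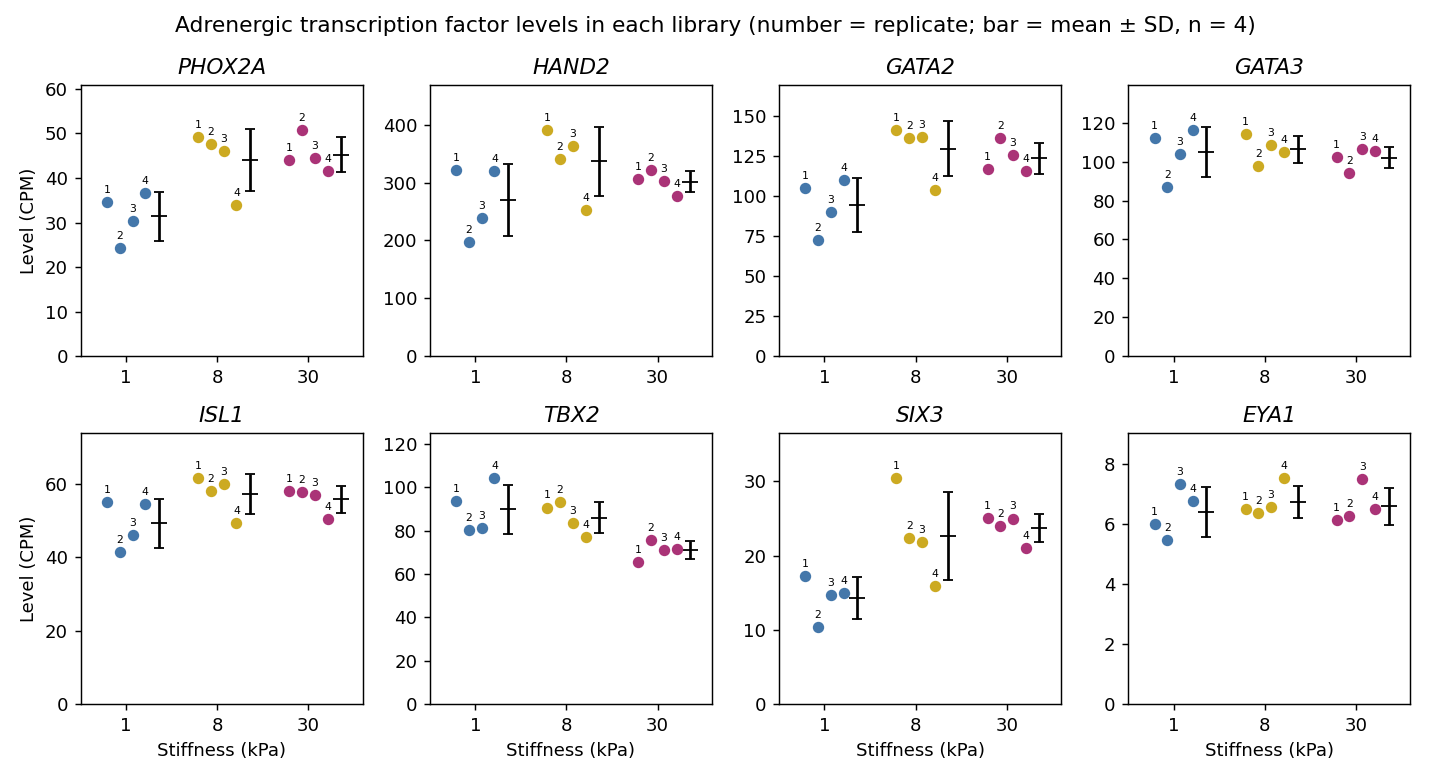
Level of each of the 8 genes (CPM, linear axis from 0) in each library by stiffness in kPa, with replicate numbers at the points and the mean with SD of 4 libraries as a bar. PHOX2A, GATA2 and SIX3 are lower in all 4 libraries at 1 kPa than in all 4 at 30 kPa, TBX2 is higher, and replicate 2 at 1 kPa is the lowest of its group for all 8 genes.

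On the middle surface 3 of the 8 genes were higher than on the softest one. PHOX2A, GATA2 and SIX3 rose 1.4-fold, 1.37-fold and 1.56-fold from 1 to 8 kPa. HAND2 and ISL1 stood higher by their means without passing the test, and GATA3, TBX2 and EYA1 had intervals that span 0. None of the 8 fell. Over all tested genes 8.17% rose and 5.6% fell in this comparison, 13.8% in all. At an unadjusted p under 0.05 the count was 5 of the 8, beside 31.2% of all genes. For 0 of the 8 were the groups without overlap, beside 9.41% of all genes higher and 7.36% lower without overlap. The median log2 fold change was 0.267 for the 8 genes and -0.0148 for all genes tested.

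PHOX2A (ENSG00000165462, GRCh38 chromosome 11, 72239077 to 72245664) stood at 34.7, 24.3, 30.2 and 36.6 CPM in replicates 1 to 4 at 1 kPa and at 49.1, 47.5, 46.0 and 33.9 CPM at 8 kPa. The first 3 libraries at 8 kPa lay above all 4 at 1 kPa, and replicate 4 lay among them. The log2 fold change was 0.49 (SE 0.129, 95% interval 0.211 to 0.761, adjusted p = 0.0264 by the quasi-likelihood test of edgeR, with Benjamini-Hochberg adjustment over all tested genes, as for every adjusted p below unless another tool is named).

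GATA2 (ENSG00000179348, chromosome 3, 128479427 to 128493185) showed the same order of libraries. It stood at 105.4, 72.5, 90.2 and 110.3 CPM at 1 kPa and at 141.3, 136.5, 137.2 and 104.1 CPM at 8 kPa. Again replicate 4 at 8 kPa alone fell within the range of the 1 kPa libraries. Its log2 fold change was 0.46 (SE 0.12, adjusted p = 0.0265).

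SIX3 (ENSG00000138083, chromosome 2, 44941898 to 44946077) had values of 17.3, 10.4, 14.8 and 14.9 CPM at 1 kPa and of 30.4, 22.3, 21.9 and 16.0 CPM at 8 kPa. It varied most of the 8 at 8 kPa, with an SD of 26.3% of the mean. The log2 fold change was 0.65 (SE 0.171, adjusted p = 0.0265).

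HAND2 (ENSG00000164107, chromosome 4, 173524969 to 173530229) stood at 322.4, 197.1, 238.7 and 320.5 CPM at 1 kPa and at 390.7, 341.2, 363.3 and 253 CPM at 8 kPa. Replicates 1 to 3 at 8 kPa were above all libraries at 1 kPa, while replicates 1 and 4 at 1 kPa were above replicate 4 at 8 kPa. The log2 fold change of 0.32 (95% interval 8.85e-05 to 0.642) did not pass (adjusted p = 0.16). For ISL1 (ENSG00000016082, chromosome 5, 51383391 to 51394738) the values were 55.1, 41.4, 46.0 and 54.5 CPM against 61.5, 58.0, 59.9 and 49.3 CPM, with the same library out of line. Its log2 fold change was 0.21 (95% interval 0.0135 to 0.412, adjusted p = 0.136). Both genes passed without 8 kPa replicate 4 (0.43 and 0.27, adjusted p = 0.0418 and 0.0461), and HAND2 also with no low-count filter (adjusted p = 0.049).

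The remaining members did not share this pattern. GATA3 (ENSG00000107485, chromosome 10, 8045378 to 8075203) averaged 104.8 ± 13.0 CPM on the softest surface and 106.4 ± 6.87 CPM on the middle one (mean ± SD of 4 libraries), and the groups overlapped. The interval of its log2 fold change ran from -0.153 to 0.192. TBX2 (ENSG00000121068, chromosome 17, 61399896 to 61409466) averaged 89.9 ± 11.4 and 86.0 ± 7.29 CPM, with an interval from -0.246 to 0.117. EYA1 (ENSG00000104313, chromosome 8, 71197433 to 71592025) averaged 6.40 ± 0.833 and 6.74 ± 0.535 CPM, with an interval from -0.171 to 0.318.

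The 3 calls at 8 kPa did not hold in every fit. With the depth class as a term the log2 fold changes were 0.64 for PHOX2A, 0.58 for GATA2 and 1.08 for SIX3, but 0 genes passed (adjusted p = 0.0884, 0.0974 and 0.0643), and all 3 calls were also lost in a fit of these 8 libraries alone and without 1 kPa replicate 2, 1 kPa replicate 3, 8 kPa replicate 1 or 8 kPa replicate 3. Within the shallow libraries 8 kPa has only replicate 1, which matches the 1 kPa libraries in depth. The log2 fold changes there were 0.66, 0.59 and 1.10. In this 1 library PHOX2A, HAND2, GATA2, ISL1 and SIX3 each lay above all 4 libraries at 1 kPa. The other 3 members lay within the 1 kPa range. The share of all genes that lay above it was not counted, so this describes 1 library only.

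**Figure D2:**
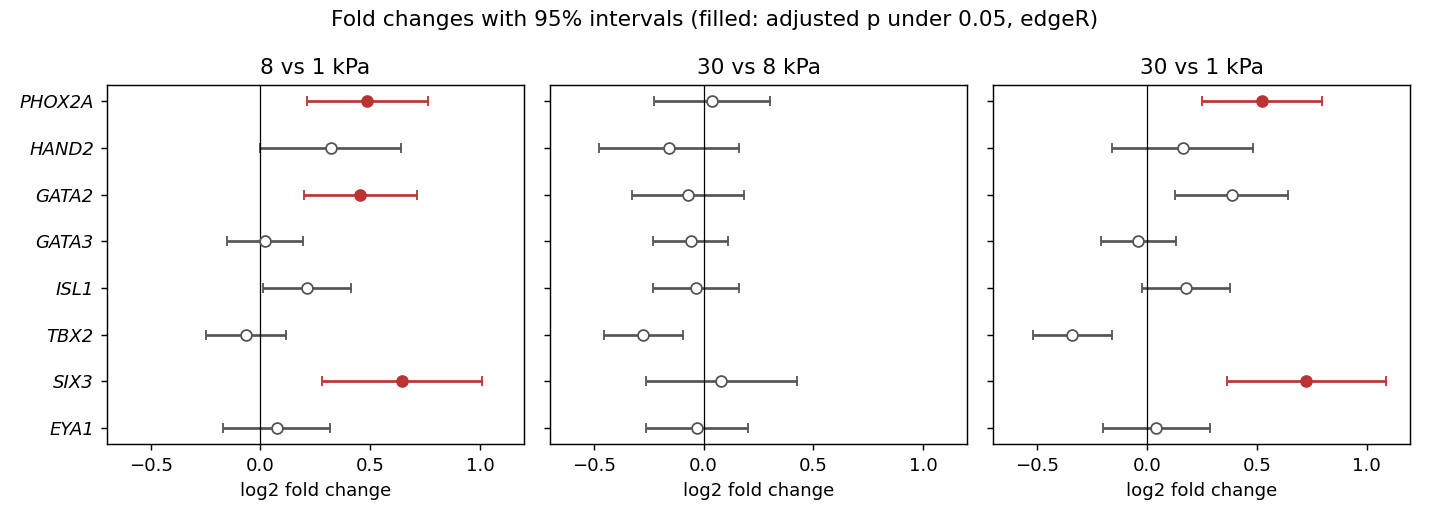
Log2 fold change (x axis) of each gene (y axis) in the 3 pairwise comparisons, with 95% intervals as bars and filled points where the adjusted p was under 0.05. Filled points are PHOX2A, GATA2 and SIX3 at 8 against 1 kPa and PHOX2A and SIX3 at 30 against 1 kPa, and no point is filled at 30 against 8 kPa.

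Between the softest and the stiffest surface PHOX2A and SIX3 rose, 2 of the 8, beside 1.1% of all tested genes that rose and 1.33% that fell, 2.43% in all. At an unadjusted p under 0.05 the count was 4 of the 8, beside 18.9% of all genes. The groups did not overlap for PHOX2A, GATA2 and SIX3, all higher at 30 kPa, and for TBX2, which was lower. Of all tested genes 5.33% were higher without overlap and 6.06% lower without overlap. The median log2 fold change was 0.17 for the 8 genes and 2.06e-05 for all.

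At 30 kPa PHOX2A stood at 44.0, 50.7, 44.6 and 41.7 CPM, above every library at 1 kPa. The log2 fold change was 0.52 (SE 0.128, adjusted p = 0.0475). SIX3 stood at 25.1, 23.9, 25.0 and 20.99 CPM at 30 kPa, also above every library at 1 kPa, and rose 1.65-fold (log2 fold change 0.73, SE 0.17, adjusted p = 0.0425). GATA2, at 116.8, 136.2, 126.0 and 115.7 CPM, likewise cleared the 1 kPa libraries, and its log2 fold change of 0.39 (95% interval 0.128 to 0.643) did not pass (adjusted p = 0.101). GATA2 passed with DESeq2 (adjusted p = 0.0419) and with no low-count filter (adjusted p = 0.00929).

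TBX2 went the other way. It stood at 93.8, 80.1, 81.4 and 104.2 CPM at 1 kPa and at 65.6, 75.8, 71.2 and 71.8 CPM at 30 kPa, so that all 4 libraries at 30 kPa were below all 4 at 1 kPa. The log2 fold change was -0.34 (95% interval -0.52 to -0.157, adjusted p = 0.0512). It passed with DESeq2 (adjusted p = 0.00951), with no filter (adjusted p = 0.0165), with a stricter filter (adjusted p = 0.0446) and without 1 kPa replicate 2 or 8 kPa replicate 4 (adjusted p = 0.0281 and 0.0329).

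HAND2 averaged 301.9 ± 18.6 CPM at 30 kPa against 269.7 ± 62.2 CPM at 1 kPa, and the groups overlapped (log2 fold change 0.16, 95% interval -0.158 to 0.483). ISL1 averaged 55.8 ± 3.64 against 49.2 ± 6.66 CPM, again with overlap (0.18, 95% interval -0.0203 to 0.377). GATA3 averaged 102.1 ± 5.55 CPM at 30 kPa, with an interval from -0.21 to 0.134 on the log2 scale. EYA1 averaged 6.60 ± 0.612 CPM, with an interval from -0.199 to 0.286. The call of PHOX2A was lost without any 1 library apart from 1 kPa replicate 4 or 8 kPa replicate 4, and that of SIX3 without any apart from 8 kPa replicate 1 or replicate 4. With the depth class as a term the changes were 0.73 and 1.33, and neither passed (adjusted p = 0.444 each). Only 8 kPa spans both depth classes, so 8 kPa replicate 1 alone sets that term against the deep 8 kPa libraries. These values therefore do not compare 1 with 30 kPa at matched depth.

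Between 8 and 30 kPa none of the 8 genes passed, beside 0% of all tested genes. At an unadjusted p under 0.05 the count was 1 of the 8, TBX2, beside 17.9% of all genes, and DESeq2 called 0 of the 8. TBX2 had values of 90.7, 93.0, 83.5 and 76.9 CPM at 8 kPa, all above the 4 libraries at 30 kPa, a separation in this direction that 6.5% of all genes showed, with 4.79% separated the other way. Its log2 fold change was -0.27 (SE 0.0842, adjusted p = 0.155), and it passed without 8 kPa replicate 4 (-0.32, adjusted p = 0.0444). Within the deep libraries, 3 at 8 kPa and 4 at 30 kPa, TBX2 had -0.25 (adjusted p = 0.199).

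For the others the comparison of 30 with 8 kPa gave narrow to moderate intervals around 0 on the log2 scale. They ran from -0.228 to 0.303 for PHOX2A, from -0.478 to 0.161 for HAND2 and from -0.324 to 0.185 for GATA2. For ISL1 the interval was -0.23 to 0.161, for GATA3 -0.229 to 0.113, for EYA1 -0.262 to 0.203 and for SIX3 -0.263 to 0.423. The 3 pairwise comparisons share their libraries and are not independent of each other.

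The level at 8 kPa was also set against the mean of the 1 and 30 kPa levels on the log2 scale, to ask whether the middle stiffness stands apart. None of the 8 passed, beside 7.08% of all tested genes (4.42% higher and 2.66% lower). At an unadjusted p under 0.05 the count was 1 of the 8, beside 27.5% of all genes, and DESeq2 called 0 of the 8. GATA2 had the smallest p, at 0.26 (SE 0.102, adjusted p = 0.117). The other 7 lay between 0.04 for GATA3 and 0.28 for SIX3. Without 8 kPa replicate 4, PHOX2A, GATA2 and SIX3 passed at 0.33, 0.35 and 0.41 (adjusted p = 0.0333, 0.0278 and 0.0392).

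Single libraries showed how closely PHOX2A, HAND2, GATA2, ISL1 and SIX3 were tied to each other, a set of 5 picked after their values were seen and therefore described without a test. Replicate 2 at 1 kPa had the lowest level of all 12 libraries for 7 of the 8 genes, the exception being TBX2. Replicate 1 at 8 kPa was the highest of all for 4, HAND2, GATA2, ISL1 and SIX3. Averaged over the 5 genes, log2 CPM stood at -0.64 relative to the mean library in 1 kPa replicate 2 and -0.33 in 1 kPa replicate 3, but at -0.06 and -0.08 in 1 kPa replicates 1 and 4. At 8 kPa the 5 genes averaged 0.37, 0.21, 0.22 and -0.20 in replicates 1 to 4, and at 30 kPa 0.14, 0.22, 0.16 and 0.00. The spread among libraries of a group was thus as wide at 1 and 8 kPa as the distance between the groups, and it was narrowest at 30 kPa.

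**Figure D3:**
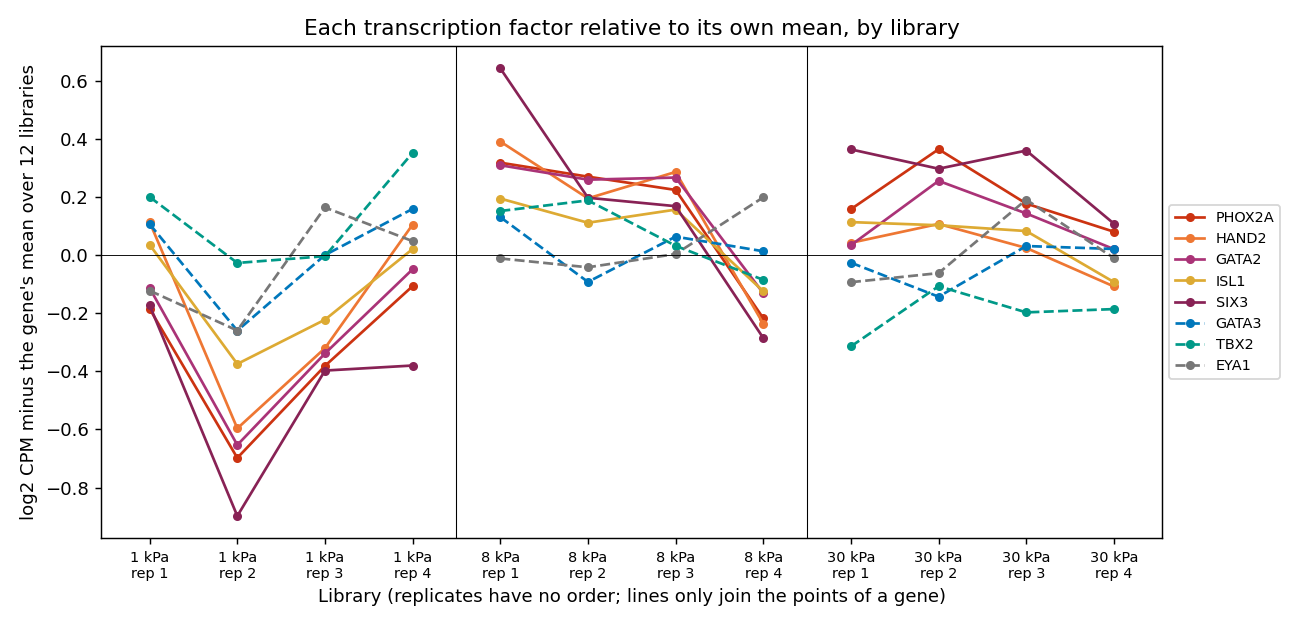
Log2 CPM of each gene minus its own mean (y axis) in each of the 12 libraries (x axis), with PHOX2A, HAND2, GATA2, ISL1 and SIX3 as solid lines and GATA3, TBX2 and EYA1 dashed. The solid lines dip together in 1 kPa replicate 2 and in 8 kPa replicate 4, where TBX2 is also the lowest of its group. Over all 12 libraries the dashed lines follow the solid ones less closely.

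Over the 12 libraries the 10 pairs among these 5 genes had Pearson r from 0.802 to 0.981, highest for PHOX2A with GATA2, as a description. After each gene's values were centred on its group means, r ran from 0.821 to 0.987, so the tie did not need the differences between stiffnesses. With the 2 libraries farthest from the median left out, the lowest r was 0.518, for HAND2 with SIX3, and the highest 0.947. The 15 pairs of one of these 5 with GATA3, TBX2 or EYA1 had r from -0.233 to 0.591, and from -0.0694 to 0.853 after centring. Within groups TBX2 followed all 5, with centred r from 0.567 with SIX3 to 0.84 with PHOX2A and 0.853 with GATA2. The last exceeds the lowest centred r among the 5, 0.821. Before centring TBX2 had 0.0402 with GATA2 and -0.0988 with PHOX2A. GATA3 had centred r from 0.514 with PHOX2A to 0.655 with HAND2, and EYA1 from -0.0694 to 0.0596. The 5 were therefore less set apart within groups than over all 12 libraries.

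Other measures moved with the libraries too. The fibroblast markers, led by COL1A1 and LUM, summed to 1546, 1954, 1877 and 1406 CPM in replicates 1 to 4 at 1 kPa. The sums were highest in the replicates where the 5 genes were lowest. At 8 kPa the sums were 1380, 1484, 1479 and 1655 CPM, highest in replicate 4, where the 5 genes were lowest. At 30 kPa, where the 5 genes stood above the mean library in 3 of 4 libraries, the sums were 1805, 1683, 1853 and 1667 CPM. Other mesenchymal measures were mixed. PRRX1 was lowest of its group in 1 kPa replicate 2 (1750 CPM) and 8 kPa replicate 4 (1540 CPM). In 1 kPa replicate 3 it was highest of its group (1841 CPM). The tested mesenchymal factors averaged 0.08, 0.05 and 0.11 in these libraries, as log2 CPM relative to the mean library. The mitochondrial genome gave 11.3% to 14.8% of counts at 1 kPa, 10.2% to 11.5% in the 8 kPa libraries and 11.7% to 13.2% in those at 30 kPa. Their part in the results was not tested. In bulk RNA a smaller share of adrenergic cells and less of these transcripts per cell cannot be told apart.

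GATA2 and GATA3 are the only members of 1 family, and their ratio within a library needs no scaling between libraries. The ratio of GATA2 to GATA3 counts, looked at after the values were seen, was 0.941, 0.834, 0.866 and 0.949 at 1 kPa. It was 1.24, 1.40, 1.26 and 0.991 at 8 kPa and 1.14, 1.44, 1.18 and 1.10 at 30 kPa. Every library at 8 and at 30 kPa lay above every library at 1 kPa, including 8 kPa replicate 1, which is as shallow as those at 1 kPa. The pair was chosen for this pattern, which restates the fold changes of GATA2 and GATA3 given above, so the ratio is a description with no test.

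**Figure D4:**
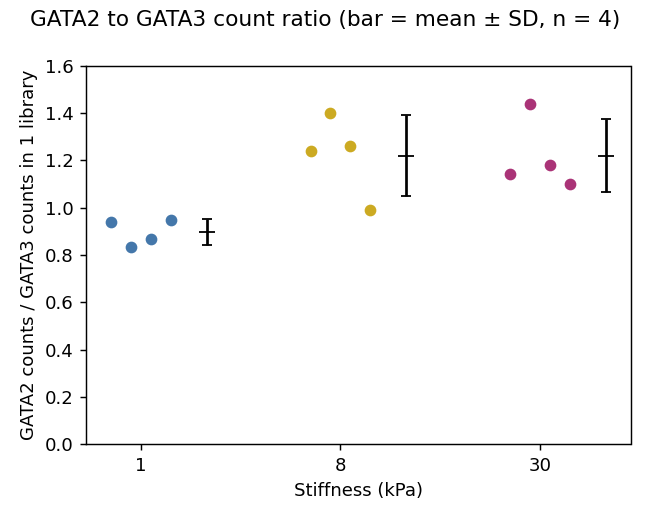
Ratio of GATA2 counts to GATA3 counts in each library (y axis, linear from 0) by stiffness in kPa, with the mean and SD of 4 libraries as a bar. All 4 points at 1 kPa, from 0.834 to 0.949, lie below all points at 8 and 30 kPa.

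Antisense and divergent noncoding neighbours matter here because the strand setting of the counting was not given, so it is unknown whether reads of a gene and of its antisense partner were kept separate. HAND2-AS1 shares 867 exonic bases with HAND2 on the opposite strand and averaged 355 ± 42.2, 339 ± 24.4 and 377 ± 26.4 CPM at 1, 8 and 30 kPa. Its log2 fold change at 8 against 1 kPa was -0.07 (adjusted p = 0.627), beside 0.32 for HAND2. GATA2-AS1 (9.99, 12.2 and 10.9 CPM), GATA3-AS1 (15.2, 16.8 and 15.5 CPM) and TBX2-AS1 (9.26, 8.53 and 8.47 CPM) overlap the span of their partner on the opposite strand with 0 shared exonic bases. ISL1-DT starts 59 bases from ISL1 and stood at 32, 31.8 and 33.7 CPM. SIX3-AS1 starts 25 bases from SIX3 and stood at 1.47, 2.17 and 1.95 CPM. None of these 6 passed in any pairwise comparison, with adjusted p of 0.0775 for GATA2-AS1 at 8 against 1 kPa as the smallest. An unnamed gene (ENSG00000267131) shares 28 exonic bases with TBX2 on the opposite strand and, at 1.18, 0.656 and 0.839 CPM, fell at 8 against 1 kPa (log2 fold change -0.84, adjusted p = 0.0374). PHOX2A shares 29 exonic bases with INPPL1, a lipid phosphatase gene on the opposite strand, at 134, 124 and 125 CPM.

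No family relative of the 8 genes passed the test. Of 25 listed, 14 had enough counts and 0 passed in any comparison by edgeR, HAND1 having the smallest unadjusted p at 8 against 1 kPa (0.00716). GATA1, GATA6, TBX5 and EYA2 had 0 counts in every library. HAND1, the closest relative of HAND2, averaged 7.55, 12.5 and 14.1 CPM at 1, 8 and 30 kPa, with log2 fold changes of 0.71 at 8 against 1 kPa (adjusted p = 0.051) and 0.89 at 30 against 1 kPa (adjusted p = 0.0515). GATA4 averaged 14.3, 19.1 and 17.8 CPM, with 0.41 at 8 against 1 kPa (adjusted p = 0.0638). TBX3, the near relative of TBX2, averaged 173, 188 and 191 CPM, with 0.14 at 30 against 1 kPa (adjusted p = 0.191) where TBX2 had -0.34. SIX4, which also stands on the list of mesenchymal factors, averaged 59.9, 51.9 and 46.8 CPM, with -0.36 at 30 against 1 kPa (adjusted p = 0.0518).

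Of 26 further tested transcription factors of the sympathetic lineage, 3 rose, 1 fell and 22 did not pass at 8 against 1 kPa, a share near the 13.8% of all tested genes that passed. A positive fold change was seen in 21 of the 26, with a median of 0.215, beside 47.6% of all genes and a median of -0.0148. TLX2, a homeodomain factor of neural crest derivatives, rose from 28.8 to 36.9 CPM (log2 fold change 0.35, adjusted p = 0.0128). TCF3, an E protein that pairs with HAND2, rose by 0.30 (adjusted p = 0.0441). LDB1, which bridges LIM proteins such as ISL1 and LMO factors, fell from 132 to 114 CPM (-0.22, adjusted p = 0.0161), and was lower at 8 kPa than the mean of 1 and 30 kPa as well (-0.17, adjusted p = 0.0354). LMO3 rose by 0.97 (adjusted p = 0.0447) from a mean of 0.489 CPM. At 30 against 1 kPa 0 of the 26 passed, with a median of 0.161, and at 30 against 8 kPa 0 passed, with a median of -0.046.

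Also tested were 21 genes whose proteins bind these factors in complexes. At 8 against 1 kPa 4 rose and 2 fell, beside 8.17% and 5.6% of all tested genes. LDB1, LMO3 and TCF3 were again 3 of these 6. TLE5, a short Groucho-type corepressor, rose from 161 to 207 CPM (0.36, adjusted p = 0.00969), and the deacetylase HDAC2 was the fourth that rose (0.24, adjusted p = 0.0369). CHD4, a chromatin remodelling ATPase, fell from 19.5 to 14.6 CPM (-0.42, adjusted p = 0.0108). TLE5 and CHD4 also differed at 8 kPa from the mean of 1 and 30 kPa (0.29 and -0.28, adjusted p = 0.0275 and 0.0398). None of the 21 passed in the other 2 comparisons.

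Genes that adrenergic factors are known to switch on were listed too. Of 25 tested genes of catecholamine handling, granules, neurites and receptors, 4 rose, 0 fell and 21 did not pass at 8 against 1 kPa, where 8.17% of all tested genes rose and 5.6% fell. A positive fold change was seen in 23 of the 25, with a median of 0.219 on the log2 scale, beside 47.6% of all genes and a median of -0.0148. STMN2, which destabilises microtubules in growth cones, rose from 227 to 375 CPM (0.72, adjusted p = 0.0238). GAP43, a growth cone protein, rose from 70 to 111 CPM (0.66, adjusted p = 0.0243) and was the 1 gene of the list that passed against the mean of 1 and 30 kPa (0.61, adjusted p = 0.0309). STMN4, a relative of STMN2, rose by 0.77 (adjusted p = 0.0286). At 30 against 1 kPa the receptor ALK rose (0.82, adjusted p = 0.00919) and the granule protein SCG2 fell from 2260 to 1420 CPM (-0.67, adjusted p = 0.0139), and the other 23 did not pass, beside 2.43% of all genes that passed. At 30 against 8 kPa 0 of the 25 passed, and 7 had a positive fold change. MAOA, a monoamine oxidase, was the fourth that rose at 8 kPa (0.83, adjusted p = 0.036). The list was chosen with earlier results of these data known and is not independent evidence of a direction.

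The genes most like each member over the 12 libraries were named from 11094 protein-coding genes with at least 5 CPM on average, by Pearson r of log2 CPM, as a description that rests on shared libraries and scaling. PHOX2A was closest to GNAO1, a neuronal G protein subunit (r = 0.986), and to HAND1 (r = 0.983). GATA2 was closest to RAB3C, a vesicle GTPase (r = 0.986), GNAO1 and PLD5 (r = 0.984 each). HAND2 was closest to the cadherin DCHS1 (r = 0.986), DPYSL2, which guides axon growth (r = 0.985), and PHYHIPL (r = 0.983). ISL1 was closest to CD24, FGF14 (r = 0.978 each) and DOC2B, a calcium sensor of exocytosis (r = 0.977). SIX3 was closest to SATB1, a chromatin organiser that is also on the list of lineage factors (r = 0.957), MCC (r = 0.957) and CACNA2D2, a calcium channel subunit (r = 0.953). For these 5 members every r stayed at or above 0.893 when the 2 libraries farthest from the median, 1 kPa replicates 2 and 3, were left out.

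The other members had unlike neighbours. TBX2 was closest to FNDC3A (r = 0.962), the kinase SGK1 and ARRDC3 (r = 0.951 each). GATA3 was closest to the splicing factor PRPF38A, the deacetylase SIRT1 (r = 0.924 each) and ZNF669 (r = 0.921), values that dropped to 0.775, 0.8 and 0.737 without 1 kPa replicate 2 and 30 kPa replicate 2. EYA1 was closest to MIPEP, a mitochondrial peptidase (r = 0.899), DDX10 (r = 0.865) and EHBP1 (r = 0.853). Without 1 kPa replicate 2 and 8 kPa replicate 4 these were 0.926, 0.737 and 0.753. The member most like GATA3 was HAND2 (r = 0.591), and the member most like TBX2 was GATA3 (r = 0.397).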

How the data were processed

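The 12 libraries were assigned to 1, 8 or 30 kPa by their titles, and the columns of the table by the same names. HISAT2 and the build GRCh38 are named in the submitters' processing notes. The authors deposited raw counts per gene under Ensembl identifiers. The sources used here do not give the counting tool, annotation release, strand setting or filters. Of 60664 identifiers 60463 matched the name table. Positions and exon lengths came from GENCODE v29, and promoter stretches from RefSeq on GRCh38.p14.

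Counts were tested in R 4.3.3 with edgeR 4.0.16, after filterByExpr and TMM scaling, by the quasi-likelihood F-test over all 12 libraries with stiffness as the only term, with Benjamini-Hochberg adjustment over 17960 genes at a threshold of 0.05. The SE is the size of the log2 fold change over the root of F. Levels are CPM after TMM. The steps were tested on simulated counts. DESeq2 1.42.0, other scaling and filters, a replicate block, the depth class as a term, the compared libraries alone and left-out libraries were alternatives, and fits within a depth class were added after seeing the data.

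The members and lists were chosen with earlier results of these data known. Named genes were all 8 members, the antisense neighbours, up to 3 genes of each list with the smallest adjusted p among those past the threshold in a comparison, and the 3 genes most like each member, of which 1 is not reported here. HAND1, GATA4, TBX3, SIX4, INPPL1, ENSG00000267131, LMO3 as a lineage factor, MAOA, IRF1, HDAC2 and genes at 0 counts were named after their values were seen, and DBH, CHGA, TH and INSM1 as checks of identity.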

Additional observations from a re-analysis of the deposited data

Results flagged for a closer look

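GATA2 in 8 kPa replicate 4 stood at 104.1 CPM, far below the nearest of the other 3 libraries of its group at 136.5 CPM, a gap of 0.871 of the group's range. ISL1 in 30 kPa replicate 4 stood at 50.36 CPM, with the nearest library at 56.89 CPM and a gap of 0.842 of the range. These were the 2 single libraries set apart from their group among 24 groups of 4 examined for the 8 genes, and chance sets apart about 1 in 20.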

How the results depend on the processing

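The depth class is fixed to stiffness at 1 and 30 kPa and only 8 kPa spans both classes, so depth limits every comparison with 1 kPa. Every fit with the depth class as a term rests on 8 kPa replicate 1, the only shallow library of that group. Of 8 against 1 kPa, 3 genes passed, but 0 did with the depth class as a term, 0 with only the compared libraries, 0 within the shallow libraries and 0 to 5 with 1 library left out (5 when 8 kPa replicate 4 was dropped, 1 when 8 kPa replicate 2 was, and 0 when replicate 2 or 3 at 1 kPa or replicate 1 or 3 at 8 kPa was). Of 30 against 8 kPa, 0 passed, and 0 to 1 with 1 library left out (1 without 8 kPa replicate 4). Of 30 against 1 kPa, 2 passed, but 4 with no low-count filter, 4 with DESeq2, 0 with the depth class and 0 to 3 with 1 library left out (3 without 8 kPa replicate 4). For 8 kPa against the mean of 1 and 30 kPa, 0 passed, but 1 with no filter and 0 to 3 with 1 library left out (3 without 8 kPa replicate 4). The cause was not tested.

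Directions turned only for small changes, on the log2 scale. At 8 against 1 kPa TBX2 was at 0.0125 with the depth class and 0.0245 within the shallow libraries. With 1 library left out the range was -0.0604 to 0.0673 for GATA3 and -0.1159 to 0.0095 for TBX2. At 30 against 8 kPa ISL1 was at 7e-04 with the depth class and 0.0041 within the deep libraries. Without 1 library the range was -0.0685 to 0.0934 for PHOX2A, -0.0967 to 0.0145 for ISL1, -0.0525 to 0.2466 for SIX3 and -0.0979 to 0.0334 for EYA1. At 30 against 1 kPa GATA3 was at 0.0964 and EYA1 at -0.0258 with the depth class. Without 1 library they ranged from -0.1168 to 0.013 for GATA3 and -0.0235 to 0.1167 for EYA1. For 8 kPa against the mean of the others the range was -0.002 to 0.0781 for GATA3 and -0.0122 to 0.0862 for EYA1.

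Over all genes, 2472 passed at 8 against 1 kPa (0 with the depth class or within the shallow libraries, 1068 with the compared libraries, 534 to 3563 with 1 library left out). At 30 against 8 kPa 0 passed (330 with no filter, 430 with DESeq2, 40 with the block, 61 with the compared libraries, 2 within the deep libraries, 0 to 1026 with 1 left out). At 30 against 1 kPa 437 passed (875, 1068 and 974 with no filter, DESeq2 and the block, 0 with the depth class, 50 to 676 with 1 left out). For the departure of 8 kPa 1272 passed (2296 with DESeq2, 2096 with the block, 0 to 2870 with 1 left out).

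Replicates of a group were not equally alike. Counts of 8 kPa replicates 1 and 3 differed by a chi-square of 2.62 per degree of freedom. All other pairs within a group lay between 5.97 and 33.8. Whether these libraries come from separate cultures is not given, and the calls at 8 against 1 kPa were lost without either. Replicate numbers are shared between stiffnesses without a stated pairing. The 12 same-numbered pairs of libraries from different groups correlated at -0.134 to 0.369 in their deviations, 6 of them over 0.1, and 6 of 12 libraries correlated best with their own number. A fit that took the replicate number as a block called 3 of the 8 genes at 8 against 1 kPa, 0 at 30 against 8 kPa, 2 at 30 against 1 kPa and 0 for the departure of 8 kPa, and changed no call among the 8 genes.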

Other observations

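Of 24 tested factors of the opposing mesenchymal state, 2 rose, 2 fell and 20 did not pass at 8 against 1 kPa, a share near the 13.8% of all tested genes that passed. The median log2 fold change was -0.14 and 4 of the 24 were above 0, beside -0.0148 and 47.6% for all genes. ID1, a dominant negative helix-loop-helix protein and BMP target, rose from 53.6 to 79.3 CPM (0.57, adjusted p = 0.0131), and TWIST2, a helix-loop-helix factor of mesenchyme, from 4.70 to 6.77 CPM (0.52, adjusted p = 0.022). IRF3 and IRF1, interferon regulatory factors, fell by 0.29 and 0.31 (adjusted p = 0.0183 and 0.0292). PRRX1, the homeodomain factor that marks this state, stood at 1820, 1750, 1841 and 1767 CPM at 1 kPa and at 1469, 1390, 1371 and 1398 CPM at 30 kPa, with no overlap. It fell by 0.35 (adjusted p = 0.0144), and ELK4, an ETS factor that works with SRF, fell by 0.27 (adjusted p = 0.0175), the 2 of the 24 that passed at 30 against 1 kPa, beside 2.43% of all genes. At 30 against 8 kPa 0 of the 24 passed by edgeR, with PRRX1 at -0.21 (adjusted p = 0.15). Against the mean of 1 and 30 kPa, ID1 and TWIST2 were higher at 8 kPa (0.40 and 0.44, adjusted p = 0.0388 and 0.0349) and NOTCH2, a receptor, lower (-0.27, adjusted p = 0.0475).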
